A study of Mus musculus with 6 samples.

Results

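Chromatin readers are proteins that bind chemical marks on histones and bring enzymes and remodelling complexes to marked genes. The genes described here were chosen by symbol: Phf, Brd, Cbx, or Chd followed by a digit, together with the Brpf, Ing, and Baz families, leaving out Phf21a and Phf21b. The rule took 52 of the 14477 genes listed for the mouse hippocampus. Whole hippocampal tissue was sequenced from 3 Phf21bΔ4/Δ4 mice, labelled replicates 2, 3, and 6, and from 3 Phf21b+/+ mice, labelled 5, 7, and 8, all without treatment. Phf21bΔ4/Δ4 is a whole-body mutant line on a C57BL/6J background, made with a pair of CRISPR guides that target an exon of Phf21b, itself a PHD finger gene. The study used young adult littermates of both sexes, and neither the sex nor the exact age of these 6 mice is in their labels. The question put to the reader genes was whether their RNA levels differed between the genotypes when PHF21B, another reader, was depleted.

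Most members carry a small folded domain that gives their family its name. PHD fingers, found in the PHF, ING, BRPF, CHD3 to CHD5, and BAZ proteins, bind the tail of histone H3 with or without methylation. Bromodomains, found in the BRD, BRPF, and BAZ proteins, bind acetylated lysine, and chromodomains, found in the CBX and CHD proteins, bind methylated lysine. In the brain these proteins are known for switching neuronal genes on or off during development and after neuronal activity, and mutations of several of them cause intellectual disability or autism in people.

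The listed genes drew 20495605 to 24881257 reads in each mouse, and each reader gene had between 20 and 23766 reads in a mouse, so none was at 0. Phf21b itself had 2.15, 3.57, and 3.87 CPM in Phf21bΔ4/Δ4 replicates 2, 3, and 6 and 6.50, 5.23, and 6.47 CPM in Phf21b+/+ replicates 5, 7, and 8. All 3 Phf21bΔ4/Δ4 mice lay below all 3 Phf21b+/+ mice (log2 change -0.96 ± 0.26 SE, limma FDR 0.14). A two-sided exact permutation test gave p = 0.1, the smallest that 3 mice against 3 allow. The libraries also differed in regional markers. The marker lists hold genes that the study had already listed as changed in these data, such as Pou4f1, Chat, Fibcd1, Tcf7l2, and Aqp4. Counts of markers past the thresholds, where 1.22% of all listed genes passed, are therefore not independent of the study's calls. All 12 medial habenula markers were past both thresholds and lower in Phf21bΔ4/Δ4, at a summed 7.13 to 11.0 CPM against 171 to 240 CPM, with Pou4f1, Irx2, Chat, and Slc18a3 at 0 reads in at least 1 Phf21bΔ4/Δ4 mouse. The 8 CA1 markers summed to 868 to 1083 CPM against 311 to 381 CPM, and 3 of them were past both thresholds. The 6 dentate gyrus markers summed to 220, 224, and 519 CPM in Phf21bΔ4/Δ4 replicates 2, 3, and 6 against 621 to 711 CPM, with 1 past both thresholds. The 8 choroid plexus markers summed to 15723 CPM in Phf21b+/+ replicate 7, 977 CPM in replicate 8, and 28.7 CPM in replicate 5, against 22.9 to 80.7 CPM in Phf21bΔ4/Δ4; 1 of them, Otx2, was past both thresholds, and Kcnj13 and Slc4a5 were at 0 reads in Phf21bΔ4/Δ4 replicate 6. The 8 thalamic markers summed to 225 to 294 CPM against 304 to 583 CPM, with Tcf7l2 past both thresholds. Astrocyte markers summed to 2596 to 2942 CPM against 2697 to 3019 CPM with Aqp4 lower and past both thresholds, while no marker of microglia (286 to 304 against 266 to 293 CPM) or endothelium (128 to 161 against 90.4 to 134 CPM) passed. Rbfox3 and Snap25, which mark neurons, were present in every mouse at a summed 1754 CPM or more. The part of these tissue differences in the values below was not tested, and in bulk tissue fewer cells of a type and less RNA per cell cannot be told apart.

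The study addressed CREB, the activity-dependent transcription factor that binds the cyclic AMP response element TGACGTCA, so the promoters of the reader genes were searched for these letters on both strands. RefSeq windows of 250 bases before to 50 bases after a transcript start (build GRCm38.p6) matched 39 of the 52 reader genes. These genes had 56 windows, as some have several starts. The element stood in a window of 4 of these 39 genes (10.3%), compared with 3.50% of the 11292 listed genes with a window and 2.03% of the 27025 genes of the table. These 4 windows are shown because they hold the whole element, in capitals, upstream of the transcript start of that window. For Baz2b this is an internal start. The window lies inside the annotated gene (chr2:59899363-60209839, minus strand), far from its annotated start.
Baz2b, chr2:60125741-60125780, minus strand: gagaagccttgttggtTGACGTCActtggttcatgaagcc
Ing3, chr6:21949510-21949549, plus strand: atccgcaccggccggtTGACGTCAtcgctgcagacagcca
Cbx8, chr11:119040919-119040958, minus strand: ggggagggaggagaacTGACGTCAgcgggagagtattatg
Phf8, chrX:151520602-151520641, plus strand: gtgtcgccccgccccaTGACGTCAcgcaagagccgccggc
Counted back from the transcript start of each window, the first base of the element lay at -24 in Baz2b, -45 in Ing3, -29 in Cbx8, and -54 in Phf8. A shorter form of the element, TGACG or its reverse complement CGTCA, was in windows of 17 reader genes (43.6%) and of 34.4% of listed genes, and every full element holds both. The window of Chd5, the reader gene with the largest log2 change, held a single short form at -32, in capitals here.
Chd5, chr4:152338603-152338639, plus strand: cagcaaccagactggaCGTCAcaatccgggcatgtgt
A match is a description of the letters and not evidence of binding. The reader windows were rich in CpG, with a median of 27.5 CpG against 20 for listed genes and 7 for the whole table. The 4 genes with the full element did not share a direction: log2 changes were -0.18 for Baz2b, 0.05 for Ing3, -0.20 for Cbx8, and 0.18 for Phf8, and none was past the thresholds.

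No reader gene differed between the genotypes at the thresholds of FDR under 0.1 and a fold change above 1.3 (0 of 52), where 1.22% of all listed genes did, 0.553% higher and 0.663% lower. The lowest FDR among the readers was 0.14, for Chd7. At an unadjusted limma p under 0.05 there were 10 reader genes, or 19.2% against 23.6% of all listed genes. In 13 reader genes (25.0%) the ranges of the genotypes did not overlap, compared with 31.0% of all listed genes. A fold change above 1.3, with no test asked for, was found in 9 reader genes, or 17.3% against 27.3% of all listed genes. Of these 9, 7 were higher and 2 lower, where 10.9% of all listed genes were higher and 16.4% lower by as much. In this main comparison, counted in both directions together, the readers were under the share of the whole table. For folds above 1.3 the higher genes alone, 13.5%, were above the 10.9% of all listed genes.

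**Figure D1:**
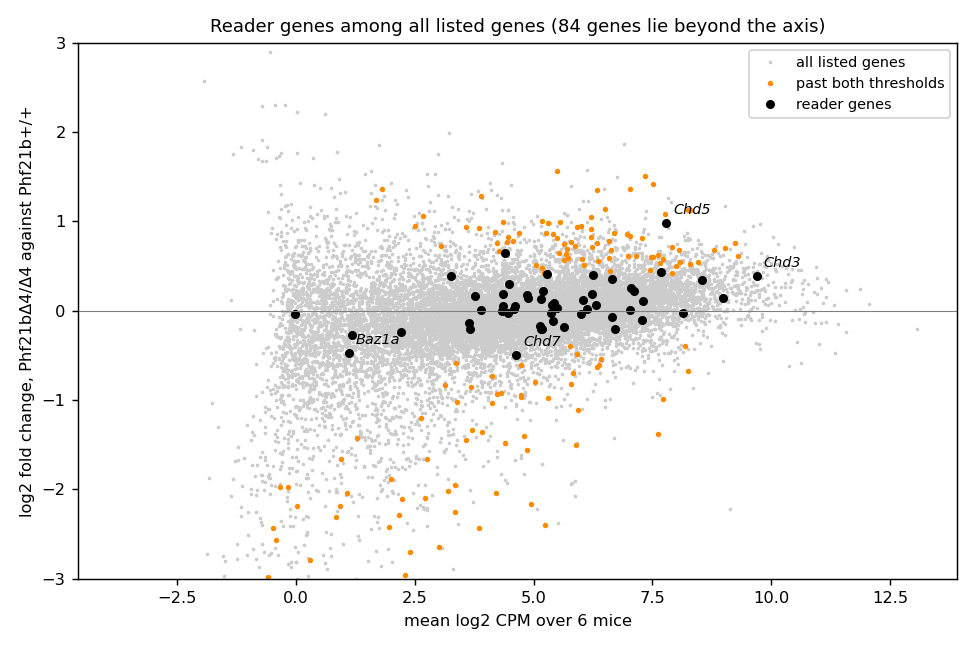
Log2 fold change of Phf21bΔ4/Δ4 against Phf21b+/+ (vertical) by mean log2 CPM over 6 mice (horizontal) for all listed genes (grey), genes past both thresholds (orange), and the 52 reader genes (black). The reader genes lie between -0.49 (Chd7) and 0.98 (Chd5), and 84 listed genes lie beyond the vertical axis.

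The log2 changes of the readers had a median of 0.05, beside -0.02 for all listed genes, and 32 of 52 (61.5%) were above 0, beside 47.6% of all listed genes. Of the 13 genes without overlap, 9 were higher in Phf21bΔ4/Δ4 and 4 were lower, or 17.3% and 7.69% of the readers against 15.0% and 16.0% of all listed genes. With each mouse centred on its median log2 CPM, 20 reader genes did not overlap, 17 higher and 3 lower, against 30.8% of all listed genes, so that the readers (38.5%) were then above the share of the table. Quantile normalization gave 8 higher and 7 lower (28.8% of readers against 27.8% of all listed genes). Removal of length trends gave 8 higher and 9 lower (32.7% against 29.7%). Under both, the share of the readers was also above that of the table. For 22 reader genes (42.3%) the whole 95% interval of the change lay within 1.3-fold in either direction, compared with 27.2% of all listed genes, so for these a change larger than 1.3-fold lay outside the interval. For the other 30 a change of that size was not excluded at this number of mice.

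**Figure D2:**
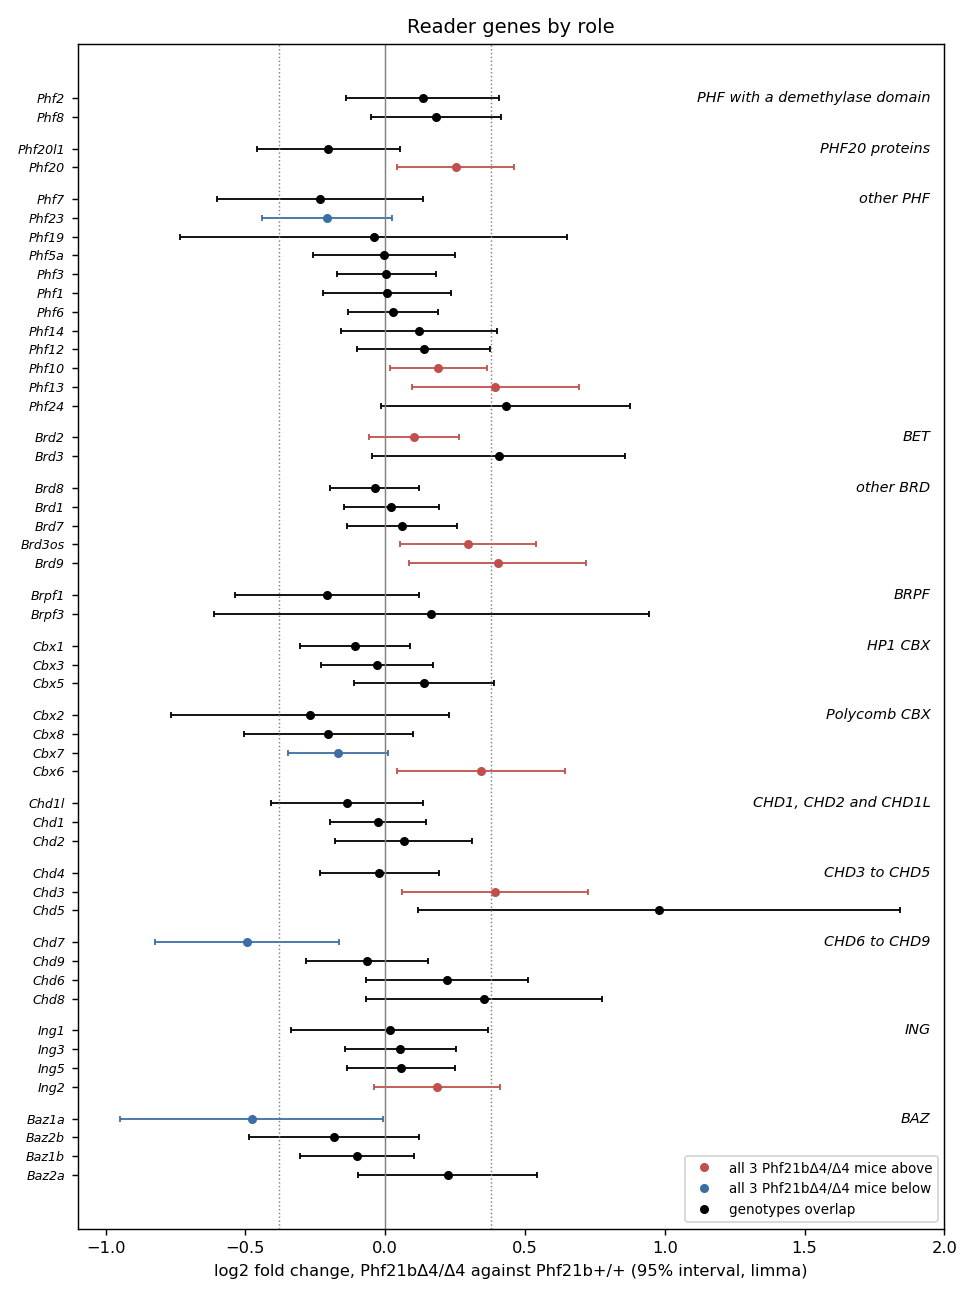
Log2 fold change (horizontal, point) with its 95% limma interval (bar) for reader genes, grouped by role; red marks genes in which all 3 Phf21bΔ4/Δ4 mice lay above all Phf21b+/+ mice, blue below, and black an overlap. Dotted lines mark 1.3-fold; Brd2, Brd3, and the ING genes all lie to the right of 0 (Brd2 and Ing1 did not under quantile normalization and with GC trends removed, in that order), and the interval of Chd5 reaches 1.84.

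The number of calls depended on 1 mouse, among the readers and among all listed genes. Without Phf21bΔ4/Δ4 replicate 6, 8 reader genes passed both thresholds: Chd3, Cbx6, Chd5, Chd8, Brd3, Brd3os, and Phf13 were higher in Phf21bΔ4/Δ4 and Chd7 was lower. The background was then 19.5% of all listed genes in place of 1.22%, and the share among readers, 15.4%, was under it. Leaving out any of the other 5 mice gave 0 reader genes, beside 0.0622% to 0.311% of all listed genes. At such shares 0 of 52 says little about the readers. When mice were weighted by their overall fit instead, 6 reader genes passed (Chd3, Chd5, and Phf13 higher, Chd7, Baz1a, and Baz2b lower), beside 24.5% of all listed genes. The weights were 2.04, 0.55, and 0.34 for Phf21bΔ4/Δ4 replicates 2, 3, and 6. For Phf21b+/+ replicates 5, 7, and 8 they were 1.01, 0.55, and 4.63. The weighted fit thus rested mostly on 1 mouse of each genotype.

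The CHD proteins are ATP-driven remodellers that slide nucleosomes. CHD3, CHD4, and CHD5 are alternative motors of the NuRD complex, which joins remodelling to histone deacetylation, and CHD5 is the form known for its expression in neurons. Chd5 (ENSMUSG00000005045.16, chr4:152338651-152390194 in GRCm38) had 348, 473, and 178 CPM in Phf21bΔ4/Δ4 replicates 2, 3, and 6, and 181, 119, and 178 CPM in Phf21b+/+ replicates 5, 7, and 8. Replicates 2 and 3 were far above the others, and replicate 6 sat among the Phf21b+/+ mice. The means were 333 ± 148 and 159 ± 35.2 CPM (SD, n = 3 each), a log2 change of 0.98 ± 0.36 SE with a 95% interval from 0.12 to 1.84 (limma FDR 0.18). Without Phf21bΔ4/Δ4 replicate 6 the log2 change of Chd5 was 1.38 (FDR 0.026), and without replicate 3 it was 0.67 (FDR 0.36).

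Chd3 was the most abundant reader RNA and did not overlap between the genotypes. Its levels were 1002, 1076, and 788 CPM in Phf21bΔ4/Δ4 and 770, 677, and 721 CPM in Phf21b+/+. Again replicate 6 was the lowest of the Phf21bΔ4/Δ4 mice, only just above the highest Phf21b+/+ mouse (log2 change 0.39 ± 0.14 SE, FDR 0.17). Chd4 was level across the mice, at 287, 254, and 304 CPM against 294, 280, and 281 CPM. The log2 change of Chd4, -0.02 with an interval of -0.23 to 0.19, turned to 0.03 when mice were centred, and the interval lay within 1.3-fold.

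Per length of exon, the 3 NuRD motors could be set side by side in each mouse. Chd3 made up 61.1% to 62.9% of their summed CPM per kb in all 6 mice. Chd5 made up 19.0%, 23.7%, and 12.4% in Phf21bΔ4/Δ4 replicates 2, 3, and 6 and 12.9%, 9.72%, and 13.4% in Phf21b+/+ replicates 5, 7, and 8. The ratio of Chd5 to Chd4 in CPM per kb was 1.02, 1.55, and 0.490 in the first group and 0.515, 0.355, and 0.531 in the second. Replicates 2 and 3 thus had ratios above those of all other mice, while replicate 6 had one within the Phf21b+/+ range. This ratio was chosen after the values were seen and was not tested.

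CHD6 to CHD9 form a separate branch that acts at enhancers and promoters, in which CHD7 is known for CHARGE syndrome and CHD8 for autism. Chd7 (ENSMUSG00000041235.12, chr4:8690406-8867659) had 19.7, 18.4, and 25.3 CPM in Phf21bΔ4/Δ4 replicates 2, 3, and 6 and 29.9, 27.1, and 31.7 CPM in Phf21b+/+. Every Phf21bΔ4/Δ4 mouse was below every Phf21b+/+ mouse, with replicate 6 the nearest to them. This was the lowest log2 change among the readers, -0.49 ± 0.14 SE (95% interval -0.82 to -0.17, FDR 0.14). CHD7 is known for its role in the neural stem cells of the adult dentate gyrus. In the dentate gyrus markers replicate 6 was also nearest to Phf21b+/+, while the order of the other mice differed. Replicate 6 was likewise the nearest for Chd3, Cbx6, and Phf23, so this was not particular to Chd7. The markers were listed for the dentate gyrus and not for its stem cells. The part of these markers in the value of Chd7 was not tested.

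Chd8 went the other way, with 115, 141, and 90.7 CPM in Phf21bΔ4/Δ4 against 95.7, 76.1, and 97.0 CPM in Phf21b+/+. Here replicates 2 and 3 were above all Phf21b+/+ mice and replicate 6 was not (log2 change 0.35 ± 0.18 SE, FDR 0.27). Chd6, the branch member with the most CPM per kb, had 153, 172, and 124 CPM against 129, 128, and 126 CPM. For Chd6 too, replicates 2 and 3 were above all Phf21b+/+ mice and replicate 6 was not. Chd9 overlapped between the genotypes, with a log2 change of -0.07 ± 0.09 SE. Chd1, which binds methylated H3 at active promoters, Chd2, mutated in childhood epilepsy, and Chd1l, which is recruited to DNA damage, had log2 changes of -0.03, 0.07, and -0.14, with Chd2 at -0.06 once length trends were removed. Chd2, with the most CPM per kb of these, had 76.4, 93.5, and 75.6 CPM in Phf21bΔ4/Δ4 against 81.2, 73.5, and 78.7 CPM in Phf21b+/+. All 3 overlapped between the genotypes, and Chd2 shares 18.4% of its annotated exon bases with the gene 1810026B05Rik on the same strand, so reads there cannot be assigned with certainty.

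**Figure D3:**
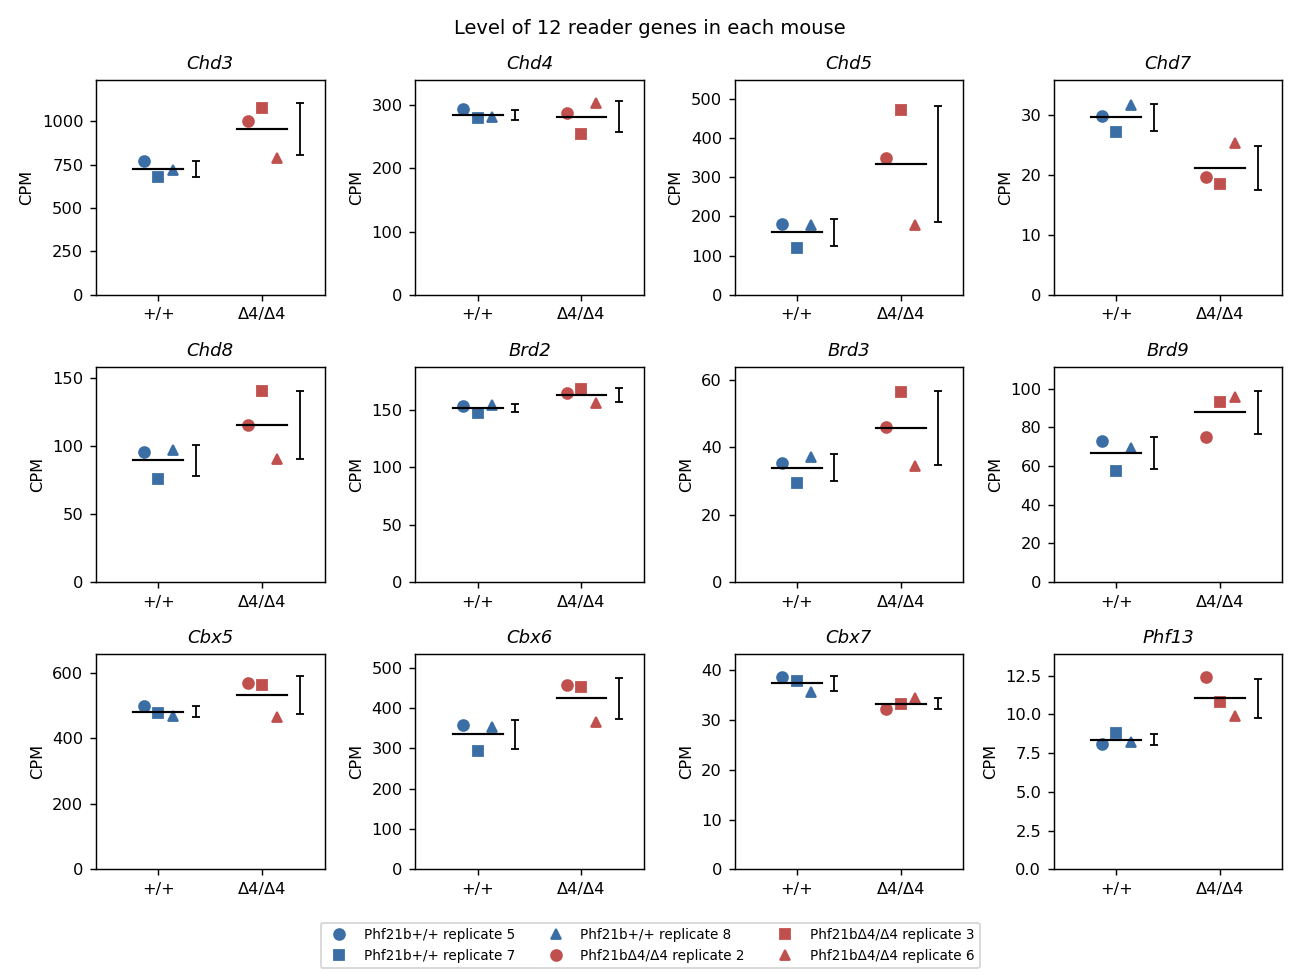
CPM (vertical, from 0) of 12 reader genes in each mouse, by genotype (horizontal); a symbol is 1 mouse, the line the mean, and the bar the SD over 3 mice. In Chd5, Chd8, Brd3, and Cbx5 the red triangle, Phf21bΔ4/Δ4 replicate 6, sits with the blue Phf21b+/+ symbols; in Brd9 it is the highest.

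BET proteins such as BRD2 and BRD3 bind acetylated histones with paired bromodomains and promote elongation by RNA polymerase II. Brd2 and Brd3 had log2 changes above 0, although that of Brd2 turned to -0.03 under quantile normalization, and neither passed the thresholds. Brd3 had 46.1, 56.4, and 34.5 CPM against 35.4, 29.4, and 37.0 CPM, with replicate 6 again inside the Phf21b+/+ range (log2 change 0.41 ± 0.19 SE, FDR 0.24). Brd2 had more CPM per kb than Brd3 and small differences, 164, 168, and 156 CPM against 153, 147, and 154 CPM. The genotypes did not overlap for Brd2, yet its log2 change was 0.10 ± 0.07 SE (FDR 0.36).

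Among the other bromodomain genes, Brd9, a subunit of the noncanonical BAF remodeller, had 75.2, 93.0, and 95.6 CPM in Phf21bΔ4/Δ4 against 73.1, 57.2, and 69.3 CPM in Phf21b+/+. Its genotypes did not overlap, and here replicate 6 was the highest of all mice (log2 change 0.40 ± 0.13 SE, FDR 0.17). Brd3os, a gene next to Brd3 that the symbol rule takes although it is not known as a reader, had 26.1, 26.3, and 21.7 CPM against 19.7, 20.0, and 20.4 CPM. It shares no annotated exon bases with Brd3, and its genotypes did not overlap (log2 change 0.30 ± 0.10 SE, FDR 0.17). Brd1, Brd7, and Brd8, subunits of the HBO1, PBAF, and TIP60 complexes in that order, had log2 changes of 0.02, 0.06, and -0.04, and the 95% intervals of all 3 lay within 1.3-fold. BRPF1 and BRPF3 are scaffolds of MYST acetyltransferases. Brpf1 had 30.0, 31.7, and 40.7 CPM against 42.8, 35.2, and 39.6 CPM (log2 change -0.21 ± 0.14 SE, or -0.34 to -0.12 when 1 mouse was left out). Brpf3 ran from 9.70 to 23.3 CPM within Phf21bΔ4/Δ4, and the interval of its log2 change ran from -0.61 to 0.94.

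CBX proteins fall into an HP1 branch, which packs heterochromatin through methylated lysine 9 of H3, and a Polycomb branch, which belongs to PRC1. Cbx5, which encodes HP1α, was second only to Chd3 in CPM per kb and had 569, 562, and 466 CPM in Phf21bΔ4/Δ4 against 499, 478, and 468 CPM in Phf21b+/+. Replicates 2 and 3 were above all Phf21b+/+ mice and replicate 6 was below them all (log2 change 0.14 ± 0.10 SE, FDR 0.42), and under quantile normalization the change was -0.10. Cbx1 and Cbx3, the other HP1 genes, had log2 changes of -0.11 and -0.03 with both intervals within 1.3-fold. Cbx3 has 8 annotated processed pseudogenes, to which some of its reads could align.

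The Polycomb CBX genes did not share a direction. Cbx6, the most abundant of them, had 456, 452, and 366 CPM in Phf21bΔ4/Δ4 against 358, 294, and 352 CPM in Phf21b+/+. All 3 Phf21bΔ4/Δ4 mice were higher, replicate 6 by the least (log2 change 0.34 ± 0.13 SE, FDR 0.18). Cbx7 had 32.2, 33.1, and 34.3 CPM against 38.6, 37.8, and 35.6 CPM. All 3 Phf21bΔ4/Δ4 mice were lower, and the log2 change of Cbx7, -0.17 ± 0.07 SE, had an interval of -0.35 to 0.01 that lay within 1.3-fold. Cbx2 and Cbx8 had log2 changes of -0.27 and -0.20, each with an overlap between the genotypes.

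The PHF genes hold PHD fingers in varied proteins. PHF8 and PHF2 join the finger to a histone demethylase domain, and mutations of PHF8 cause X-linked intellectual disability. Phf8 had 31.5, 33.6, and 27.5 CPM in Phf21bΔ4/Δ4 against 26.6, 26.8, and 28.0 CPM in Phf21b+/+, with replicate 6 inside the Phf21b+/+ range. Phf2, which had more CPM per kb than Phf8, had 36.1, 42.3, and 33.7 CPM against 32.9, 31.7, and 37.3 CPM, an overlap. The log2 changes were 0.18 ± 0.10 SE for Phf8 and 0.13 ± 0.11 SE for Phf2, and ran from 0.12 to 0.26 and from 0.04 to 0.20 when 1 mouse was left out. Phf20, a subunit of the NSL acetyltransferase complex, had 151, 135, and 149 CPM against 130, 112, and 123 CPM. Its genotypes did not overlap (log2 change 0.25 ± 0.09 SE, FDR 0.17), while its paralogue Phf20l1 had a log2 change of -0.20 ± 0.11 SE with an overlap.

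Phf13, which encodes a reader of methylated H3 known from chromosome condensation, had 12.4, 10.8, and 9.92 CPM in Phf21bΔ4/Δ4 against 8.11, 8.78, and 8.23 CPM in Phf21b+/+. All 3 Phf21bΔ4/Δ4 mice were higher, with a log2 change of 0.39 ± 0.12 SE and, after that of Chd7, the lowest FDR among the readers (0.16). Phf10, a subunit of the PBAF remodeller, had 82.3, 82.4, and 76.9 CPM against 70.2, 67.5, and 74.2 CPM. This separation was small in size, with a log2 change of 0.19 ± 0.07 SE (FDR 0.19) whose interval of 0.02 to 0.36 lay within 1.3-fold. Phf23, another reader of methylated H3, had 30.0, 32.4, and 37.2 CPM against 37.8, 38.8, and 38.0 CPM. All 3 Phf21bΔ4/Δ4 mice were lower, replicate 6 by the least (log2 change -0.21 ± 0.10 SE, FDR 0.24).

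Phf24 had the most CPM per kb of the PHF genes. It encodes GINIP, a neuronal partner of inhibitory G proteins rather than a chromatin protein, and its levels were 212, 295, and 213 CPM against 216, 146, and 173 CPM. The genotypes overlapped through Phf21b+/+ replicate 5 (log2 change 0.43 ± 0.19 SE, FDR 0.22). Phf6, mutated in Börjeson-Forssman-Lehmann syndrome, was even across the mice, at 44.0, 46.6, and 46.0 CPM against 45.2, 44.6, and 44.2 CPM. Its log2 change was 0.03 ± 0.07 SE, with an interval of -0.13 to 0.19, and turned to -0.02 once length trends were removed. Phf1 and Phf19 (PRC2 accessory factors), Phf3 (a partner of RNA polymerase II), Phf5a (a splicing factor), Phf7, Phf12 (SIN3), and Phf14 had log2 changes from -0.23 (Phf7) to 0.14 (Phf12), all with an overlap. Phf1 shares 39.3% of its exon bases with Cuta on the opposite strand.

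ING proteins read methylated H3 for acetyltransferase and deacetylase complexes. The 4 listed members all had log2 changes above 0, from 0.02 (Ing1) to 0.19 (Ing2), although that of Ing1 turned to -0.0065 with GC trends removed and to -0.06 with mouse weights, and none passed the thresholds. Ing2, a SIN3 subunit, had 20.6, 23.4, and 21.7 CPM in Phf21bΔ4/Δ4 against 18.5, 20.6, and 18.7 CPM in Phf21b+/+. The genotypes of Ing2 only just separated, replicate 2 of one and replicate 7 of the other being nearly level (log2 change 0.19 ± 0.09 SE, FDR 0.27). Ing1, the ING gene with the most CPM per kb, had 21.5, 30.2, and 21.4 CPM against 23.1, 24.2, and 24.1 CPM. Only replicate 3 was above the Phf21b+/+ mice, and the direction of Ing1 turned to -0.15 without it. BAZ proteins pair with ISWI remodelling motors. Baz1a, the ACF1 subunit, was near the bottom of the range, at 1.90, 1.67, and 1.91 CPM against 2.66, 2.32, and 2.65 CPM. All 3 Phf21bΔ4/Δ4 mice were lower on 35 to 59 reads per mouse (log2 change -0.48 ± 0.20 SE, FDR 0.21). Baz1b, mapped to the Williams syndrome region in people, had 143, 158, and 151 CPM against 175, 149, and 161 CPM, an overlap with a log2 change of -0.10 ± 0.09 SE. Baz2a and Baz2b had log2 changes of 0.22 and -0.18.

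Levels per length spanned more than 2 orders of magnitude among the readers. In Phf21b+/+, Chd3 had 85.6 ± 5.48 CPM per kb of exon (SD, n = 3), Cbx5 53.5 ± 1.77, Chd4 35.5 ± 0.98, Cbx6 31.5 ± 3.35, Phf24 25.1 ± 4.98, Brd2 19.4 ± 0.49, and Chd5 16.6 ± 3.67. The first 3 stood apart by more than their SDs, whereas Chd4 and Cbx6, Cbx6 and Phf24, and Brd2 and Chd5 came within the sum of their SDs. At the other end were Phf7 at 0.95 ± 0.10, Cbx2 at 0.58 ± 0.02, Baz1a at 0.36 ± 0.03, and Phf19 at 0.20 ± 0.02 CPM per kb. There were 13 reader genes at 10 CPM per kb or more and 4 under 1. Reader genes were long, with a median of 7138.5 annotated exon bases against 4540 for listed genes with an annotation, so at equal levels per length they collect more reads.

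**Figure D4:**
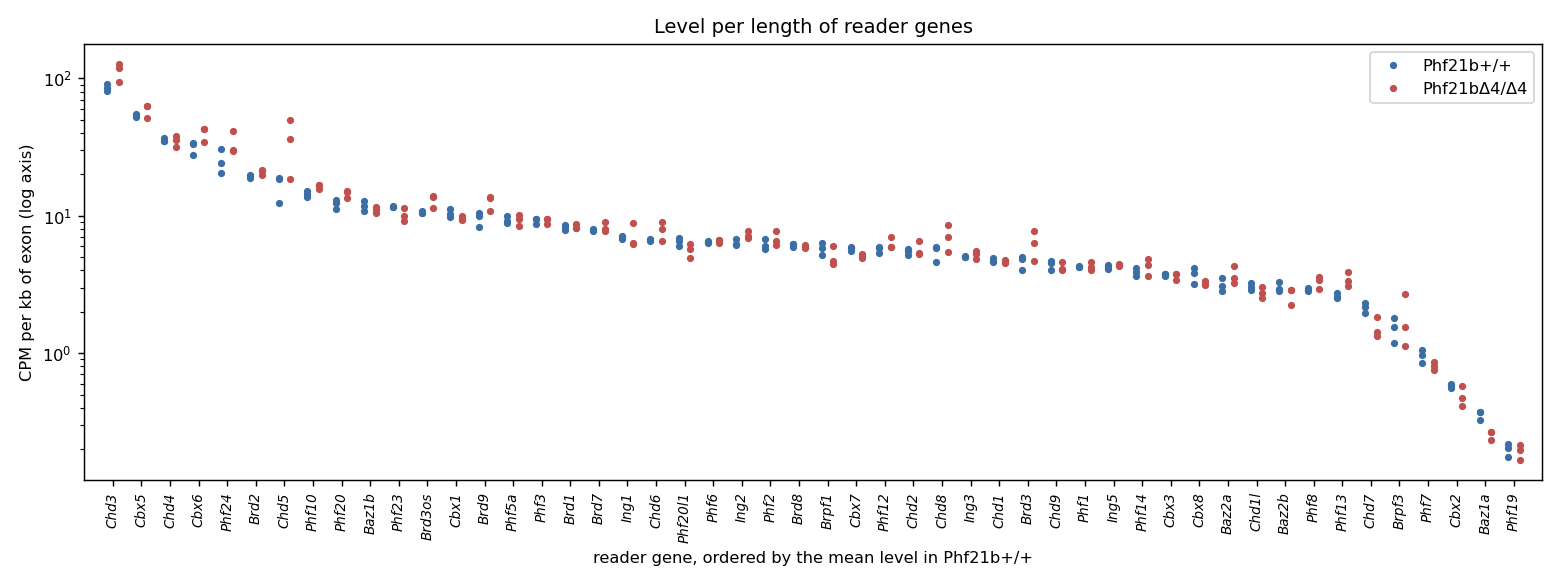
CPM per kb of exon (vertical, log axis) of reader genes, ordered by their mean in Phf21b+/+ (horizontal); each point is 1 mouse, blue for Phf21b+/+ and red for Phf21bΔ4/Δ4. Levels run from 85.6 (Chd3) to 0.20 (Phf19) CPM per kb in Phf21b+/+, and 2 of the 3 red points of Chd5 sit far above its blue points.

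An order of the mice recurred in part of the reader genes. Phf21bΔ4/Δ4 replicate 3 had the highest level of all mice in 24 of 52 reader genes (46.2%), against 23.8% of all listed genes. Phf21b+/+ replicate 7 had the lowest level in 16 (30.8%), nearer to the 26.2% of all listed genes. Replicate 3 was also the lowest mouse in 10 reader genes (19.2%, against 24.8%). Phf21bΔ4/Δ4 replicate 2 was the highest in 5 (9.62%, against 16.1%). In 10 reader genes (19.2%) replicates 2 and 3 were above every Phf21b+/+ mouse and replicate 6 was not, compared with 11.8% of all listed genes. Among them were Chd5, Brd3, Chd8, Chd6, Phf8, Cbx5, Phf12, Phf14, and Ing3. The mirror pattern, with replicates 2 and 3 below, was found in 5 reader genes (9.62%) and in 12.5% of listed genes. Summed over the 52 genes, the readers took 5151, 5580, and 4567 CPM in Phf21bΔ4/Δ4 replicates 2, 3, and 6 and 4590, 4109, and 4441 CPM in Phf21b+/+ replicates 5, 7, and 8. Replicates 2 and 3 had the highest sums and replicate 6 lay between Phf21b+/+ replicates 8 and 5. Abundant genes weigh most in such sums: Chd3 alone had 1076 CPM in replicate 3 and 677 CPM in Phf21b+/+ replicate 7.

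**Figure D5:**
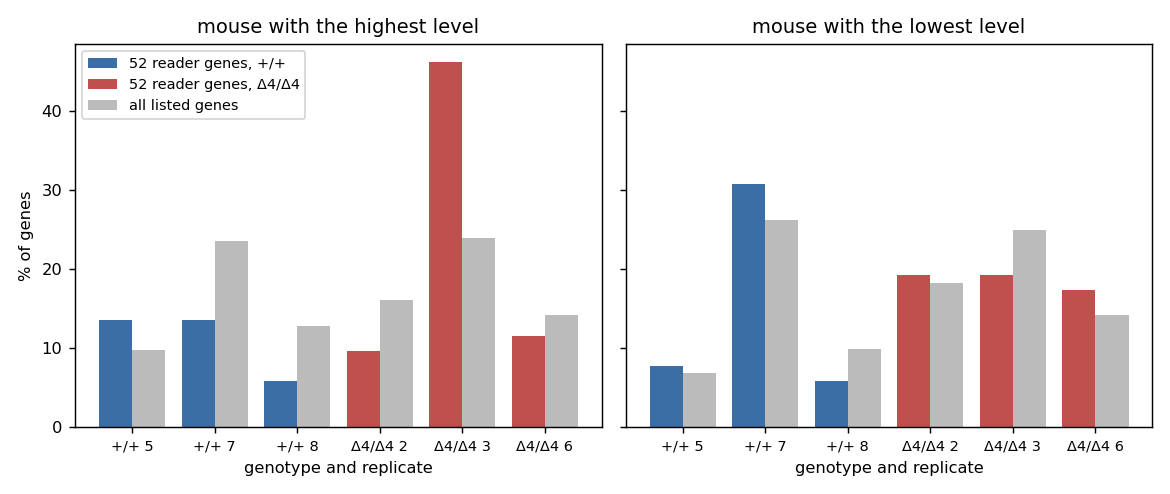
Share of genes (vertical, %) in which each mouse (horizontal) had the highest level (left) or the lowest (right), for the 52 reader genes (coloured) and all listed genes (grey). Phf21bΔ4/Δ4 replicate 3 was highest in 46.2% of reader genes against 23.8% of all listed genes, and Phf21b+/+ replicate 7 lowest in 30.8% against 26.2%.

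Some other values moved with this order, and others did not. Dentate gyrus markers were lowest in Phf21bΔ4/Δ4 replicates 2 and 3, and choroid plexus markers were highest in Phf21b+/+ replicate 7, as given above. Oligodendrocyte markers summed to 4959, 5123, and 7342 CPM in Phf21bΔ4/Δ4 replicates 2, 3, and 6 and 5791, 7276, and 7683 CPM in Phf21b+/+, so that replicate 6 was again within the Phf21b+/+ range. None of the 6 oligodendrocyte markers passed the thresholds. Other lists did not place replicate 6 with Phf21b+/+. Among them, replicate 6 had 7.13 CPM of medial habenula, 868 CPM of CA1, and 227 CPM of thalamic markers. The Phf21b+/+ ranges of these sums were 171 to 240, 311 to 381, and 304 to 583 CPM. Across the readers, the deviation of a gene in replicate 3 from its mean over the mice had a correlation of 0.26 with the GC content of its transcript, and in Phf21b+/+ replicate 7 one of -0.21. Across all listed genes these were 0.04 and -0.02, while the correlations with exon length were 0.18 and -0.14. Genes are not independent replicates and share the library here, so these are descriptions, and their part in the order was not tested. The median SD of log2 CPM among readers was 0.14 in Phf21bΔ4/Δ4 and 0.08 in Phf21b+/+. Over all listed genes it was 0.17 and 0.13, so a wider spread in Phf21bΔ4/Δ4 was not particular to the readers. In 36 of 52 reader genes the SD was larger in Phf21bΔ4/Δ4, beside 62.7% of all listed genes.

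Reader proteins work in complexes, and 99 of 100 listed subunit genes of 8 kinds of complex were measured. None of the 99 passed the thresholds, 22 had an unadjusted p under 0.05 (22.2% against 23.6% of all listed genes), and in 29 the genotypes did not overlap (29.3% against 31.0%). Their median log2 change was -0.01. For each kind of complex the gene of smallest p is named here, and 6 of these 8 had log2 changes below 0. Actl6a, the progenitor form of an actin-like BAF subunit, had a log2 change of -0.70 ± 0.16 SE (FDR 0.13) and Ezh2, the PRC2 methyltransferase, one of -0.70 ± 0.21 SE (FDR 0.15). Hdac1, the NuRD deacetylase, had -0.37 (FDR 0.14), Mrgbp of TIP60 -0.41 (FDR 0.14), Cecr2, an ISWI partner, -0.57 (FDR 0.15), and Jmjd6, a partner of BET proteins, -0.25 (FDR 0.19). Rybp of PRC1 had 0.39 (FDR 0.14) and Sap130 of SIN3 had 0.43 (FDR 0.25). Without Phf21bΔ4/Δ4 replicate 6, 17 of the 99 subunit genes passed both thresholds (17.2%), beside 19.5% of all listed genes.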

How the data were processed

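RNA-Seq values of hippocampal tissue from 6 mice, 3 of each genotype, were analysed. The authors trimmed reads with Trimmomatic 0.39, mapped them to GRCm38 with STAR 2.7.3a, counted them over GENCODE genes with featureCounts of Subread 1.6.4, normalized them with edgeR, and deposited log2 CPM of 14477 genes. Strandedness of the counting is not given in the sources used here. The values rose in steps of 1 read, and 100.0% were whole reads within 0.1 once the lowest value was removed. These recovered reads gave CPM and depth, with 3 reads worth 0.127 to 0.143 CPM; precision is also limited by 3 mice per genotype.

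Genotypes, taken from the labels, were compared by limma 3.58.1 fitted to the deposited log2 CPM (R 4.3.3; lmFit, eBayes with trend, no covariate). P-values were adjusted by Benjamini-Hochberg over all listed genes, with the study's thresholds of FDR under 0.1 and fold change above 1.3. The authors tested counts with edgeR, which was not run here; voom on the recovered reads was the count-based alternative and called 131 genes, 0 of them readers. The step was also run on simulated counts with the same spread for all genes and no mouse that differed from the others. That run does not show how the step behaves on libraries that differ as these do. The labels name no batch, and p-values measure the spread between these mice. Exon lengths, GC content, and overlaps are from GENCODE M21 (98.6% of symbols found, all 52 members), and promoters from RefSeq. CPM per kb divides CPM by the length of all annotated exons.

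The members and lists were chosen with earlier results of these data known. Values by mouse are given for the 12 reader genes of smallest p without overlap, for the gene with the most CPM per kb in each role group, and for Cbx5, Chd4, Chd5, Chd8, Phf6, and Phf8; Brd3 and Brpf3 were added after their values were seen. Some members are counted but their own values are not reported here. Partner genes are named by the smallest p in a list. Alternatives were another prior variance, robust fitting, mouse weights, voom on the recovered reads, pseudocounts of 0.1 and 1, a filter at a mean log2 CPM of 1, quantile normalization, centring, removal of length trends, FDR under 0.05, no fold threshold, and leaving out each mouse. Removal of GC trends was added after the data were seen.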

Additional observations from a re-analysis of the deposited data

How the results depend on the processing

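No paired analysis was possible because the study used littermates but the labels do not give the litter of a mouse. The main counts were 176 of all listed genes, 0 readers, 0 partner genes, and 1 of the readers with other symbols. With mice weighted by fit, which put most weight on 1 mouse of each genotype, these were 3549, 6, 12, and 10. Leaving out 1 mouse at a time gave 9 to 2830, 0 to 8, 0 to 17, and 0 to 9. All listed genes gave 28, 45, and 2830 without Phf21bΔ4/Δ4 replicates 2, 3, and 6, and 27, 14, and 9 without Phf21b+/+ replicates 5, 7, and 8. An FDR under 0.05 gave 25 of all listed genes and 0 of the other readers, 1 prior variance for all genes gave 75 and 0, and a mean log2 CPM of at least 1 gave 101. Without a fold threshold the 176 were the same in number. Centring each mouse on its median moved the reader median from 0.05 to 0.10 (all genes 0.03) and the reader genes without overlap from 13 to 20, of which 17 were higher and 3 lower. Leaving out 1 mouse gave medians of 0.03 to 0.10 and 16 to 28 genes without overlap, beside 36.9% to 55.3% of all listed genes (28 without Phf21bΔ4/Δ4 replicate 6, 20 without Phf21b+/+ replicate 8, fewer mice being easier to separate). Phf21b passed with mouse weights (-1.32) and without Phf21bΔ4/Δ4 replicate 6 (-1.12), with a range of -1.12 to -0.70 leaving out 1 mouse. Of 486 values of the 27 reader genes named by rule, 473 kept their direction, 13 turned it, and 12 were past both thresholds. Quantile normalization turned Cbx5 to -0.10, Brd2 to -0.033, and Chd2 to -0.0020. Removing length trends turned Chd2 to -0.064 and Phf6 to -0.017, and centring turned Chd4 to 0.029. Ing1 was -0.0065 with GC trends removed, -0.063 with mouse weights, and between -0.15 and 0.10 leaving out 1 mouse. Chd2 ran from -0.034 to 0.12 and Chd4 from -0.076 to 0.051 in the same way. The cause of these shifts was not tested, and for 30 of 52 readers 3 mice per genotype left an interval that reached past 1.3-fold.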

Other observations

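Readers whose symbols the rule does not take were also listed, and 55 of 59 were measured. Cdyl alone passed both thresholds, 1 of 55 beside 1.22% of all listed genes. The study had already listed Cdyl as lower in these same data, so this call is not independent of the study's calls. CDYL is a chromodomain corepressor that bridges REST, the repressor of neuronal genes, and histone methyltransferases. Its levels were 25.5, 25.6, and 34.6 CPM in Phf21bΔ4/Δ4 replicates 2, 3, and 6 and 58.6, 54.9, and 53.4 CPM in Phf21b+/+ replicates 5, 7, and 8. No Phf21bΔ4/Δ4 mouse came near a Phf21b+/+ mouse, and the log2 change of Cdyl was -0.97 ± 0.13 SE (limma FDR 0.062). Its paralogue Cdyl2 had a log2 change of 0.75 ± 0.28 SE (FDR 0.18) on 85 to 242 reads per mouse. The call of Cdyl was lost at an FDR under 0.05, with 1 prior variance for all genes, and without any mouse other than Phf21bΔ4/Δ4 replicate 6. In all, 38 of the 55 genes had log2 changes above 0 and 17 below, with a median of 0.07. Of all listed genes 47.6% were above 0, with a median of -0.02. Replicate 6 was the Phf21bΔ4/Δ4 mouse nearest to Phf21b+/+ for Cdyl and for the dentate gyrus markers. The part of these markers in the value of Cdyl was not tested.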
